A study of Homo sapiens with 18 samples.

Results

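The comparison described here sets NCI-H295R cells treated with STA9090 plus PIK75 against the same cells treated with STA9090 plus BGT226. Its members are the 3 libraries of each combination, 6 of the 18 libraries in the series, read over all genes with enough counts to test, 15787 of 58870. NCI-H295R is an established human line from an adrenocortical carcinoma and secretes steroid hormones. Treatment lasted 48 h, and the labels state 20 nM without saying how much of each agent a combination held. The other 4 groups, 3 biological replicates each, were untreated cells and cells given STA9090, PIK75 or BGT226 alone. Both combinations contain STA9090 (ganetespib), so the comparison asks how cells under an HSP90 inhibitor differ according to which PI3K inhibitor is added. All values come from 1 cell line, and no vehicle is named for the untreated cells.

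HSP90 is a chaperone that holds many kinases and hormone receptors in an active fold, and its inhibition releases the heat shock factor that switches on chaperone genes. PI3K makes a membrane lipid that activates AKT. AKT keeps FOXO transcription factors out of the nucleus and feeds into mTOR complex 1, which drives protein, lipid and nucleotide synthesis, partly through the transcription factor ATF4. PIK75 is an inhibitor of PI3K that is selective for the p110alpha subunit and has been reported to act on kinases of transcription as well. BGT226 inhibits PI3K and mTOR together.

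Of the 15787 genes tested, 3306 (20.9%) were higher and 3530 (22.4%) lower with STA9090+PIK75 than with STA9090+BGT226 at an adjusted p under 0.05. This p is from edgeR's quasi-likelihood test with Benjamini-Hochberg adjustment over all genes tested. The difference reached 2-fold in 415 of the higher genes (2.63% of those tested) and 784 of the lower ones (4.97%). The median log2 fold change over all genes was -0.02. All 3 libraries of one combination lay outside the range of the other for 8531 genes (54%). The leading principal component of the 6 libraries carried 58.6% of their variance and separated the 2 combinations.

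Log2 fold changes below are STA9090+PIK75 minus STA9090+BGT226 unless another pair is named, so that a positive value is higher with STA9090+PIK75. A value after ± is the SE of a log2 fold change (3 libraries a group), taken as its size over the square root of the test's F statistic. It rests on the fit over all 18 libraries. The 95% intervals are not adjusted for the number of genes. Levels are CPM (counts scaled to library size), not scaled for gene length, and are compared only within a gene. For gene lists the counts of called members are to be read against 20.9% higher and 22.4% lower among all genes. Counts against untreated cells are to be read against 18.3% higher and 20.1% lower with STA9090+PIK75. With STA9090+BGT226 these shares of all genes were 19.4% and 20.4%. Fewer cells in a state and less RNA per cell cannot be told apart in bulk samples.

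Library totals were 12.2 to 13.5 M counts with STA9090+PIK75 and 12.6 to 16.1 M with STA9090+BGT226. The share of 4 abundant RNA polymerase III transcripts was 35.9% to 40.3% and 35.8% to 38.4%, and that of mitochondrial mRNA 6.43% to 10.5% and 7.99% to 8.63%. Both shares overlapped between the combinations. Adrenocortical markers were present, among them CYP17A1, CYP11A1, STAR and NR5A1. Of 25 markers of fibroblasts, endothelium, leukocytes and red cells, 8 (CD3D, CD3E, CDH5, LUM, LYZ, MS4A1, PTPRC and VWF) were at 0 in all 6 libraries and 4 had enough counts to test. The fibroblast collagen COL1A1 was the member called, at 0.625, 0.662 and 1.11 CPM with STA9090+PIK75 and 7.18, 7.55 and 9.22 CPM with STA9090+BGT226 (-3.30 ± 0.249, adjusted p = 2.35e-09). The list summed to 7.09 to 8.96 CPM with STA9090+PIK75, 14.1 to 18.6 with STA9090+BGT226 and 16.2 to 20.5 in untreated cells. FAP, another fibroblast gene, was called lower without STA9090+PIK75 replicate 2 or STA9090+BGT226 replicate 1 (adjusted p = 0.04898 and 0.04023). The part of these markers in the results below was not tested.

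Of the 15 largest differences upward, 7 were in genes of amino acid supply and tRNA charging (ASNS, PYCR1, PHGDH, PSAT1, SLC6A9, SLC7A11 and MARS). ASNS encodes asparagine synthetase (ENSG00000070669.17, chromosome 7, 97852118 to 97872542, minus strand; hg38). It measured 62.9, 61.7 and 61.9 CPM with STA9090+PIK75 and 12.1, 7.70 and 8.87 CPM with STA9090+BGT226. All libraries of the first combination were above the untreated ones, at 26.4, 34.1 and 26.2 CPM, and all libraries of the second were below them. The log2 difference between the combinations was 2.71 ± 0.134, adjusted p = 5.95e-12. PHGDH and PSAT1 catalyse the opening steps of serine synthesis. PHGDH measured 296, 319.9 and 274 CPM with STA9090+PIK75 and 82.1, 71.4 and 82.7 CPM with STA9090+BGT226 (1.91 ± 0.111, adjusted p = 5.12e-11). PSAT1 measured 100.2, 101 and 94.6 CPM with STA9090+PIK75 and 26.3, 27.4 and 26.9 CPM with STA9090+BGT226 (1.88 ± 0.093, adjusted p = 6.02e-12). As with ASNS, untreated cells lay between the combinations for both, at 170.2, 223 and 183 CPM and 61.5, 71.7 and 66.4 CPM.

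**Figure D1:**
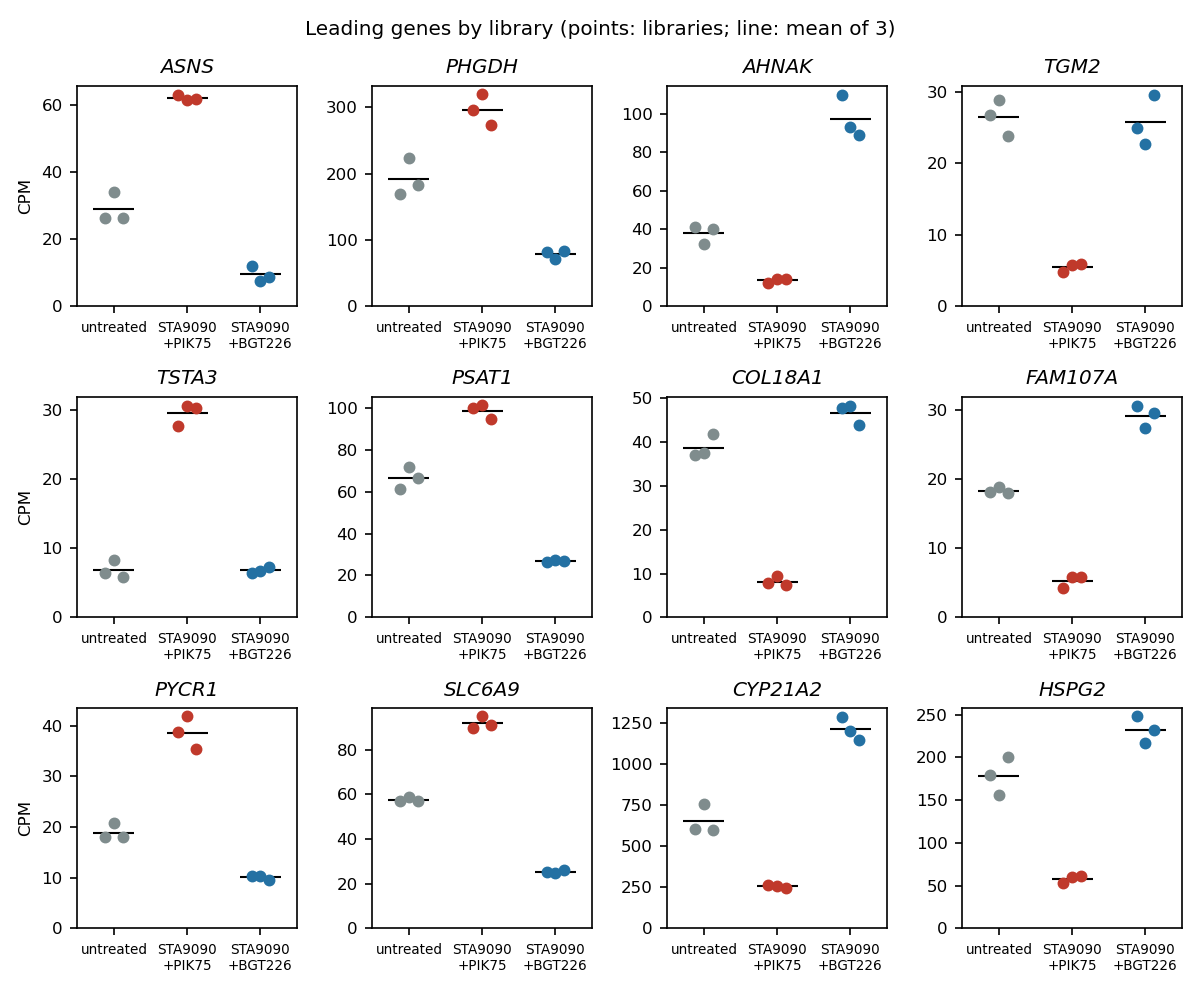
CPM (vertical axes, linear from 0) of 12 named genes in untreated cells and the 2 combinations; each point is 1 library and each line the mean of 3. For the 6 genes at the left the STA9090+PIK75 libraries lie above the others, and for the 6 at the right they lie below, with no overlap between the combinations. The rule that named the largest differences required the absence of overlap.

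Of 34 ATF4 targets tested, 25 were higher and 5 lower with STA9090+PIK75, and their median log2 fold change was 0.79. The list gathers enzymes, transporters and stress regulators that ATF4 switches on when amino acids run short or mTOR complex 1 is active. PYCR1, which completes proline synthesis, measured 38.7, 41.9 and 35.3 CPM with STA9090+PIK75 and 10.4, 10.4 and 9.58 CPM with STA9090+BGT226 (1.94 ± 0.105, adjusted p = 2.08e-11). The glycine transporter SLC6A9 had the smallest adjusted p of the list, with 89.8, 95.2 and 91.1 CPM with STA9090+PIK75 and 25.4, 24.7 and 26 CPM with STA9090+BGT226 (1.86 ± 0.0597, adjusted p = 2.2e-14). SLC7A11 brings in cystine for glutathione synthesis and measured 21.2, 25 and 21.9 CPM with STA9090+PIK75 and 5.98, 8.30 and 5.97 CPM with STA9090+BGT226 (1.76 ± 0.133, adjusted p = 2.49e-09). NUPR1, a stress-induced chromatin protein, and CHAC1, which degrades glutathione, differed by 2.66 and 2.27. For PYCR1, SLC6A9 and SLC7A11 too, the libraries of the combinations stood on opposite sides of the untreated ones.

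Not every gene tied to ATF4 followed. The mRNA of ATF4 itself measured 106, 98.2 and 97.2 CPM with STA9090+PIK75 and 106, 108 and 99.9 CPM with STA9090+BGT226, which overlapped. Its log2 fold change was -0.06 (95% interval -0.19 to 0.07, adjusted p = 0.463), and both combinations were above untreated cells (0.33 and 0.39). DDIT3, which encodes the stress factor CHOP, differed by -0.29 (-0.55 to -0.03, adjusted p = 0.062). Lower with STA9090+PIK75 were the related factors ATF5 (-0.78) and CEBPB (-0.82), the transporters SLC38A2 and SLC1A4 (-0.44 and -0.32), and ASS1. ASS1 encodes argininosuccinate synthase, which makes the precursor of arginine, and was among the 15 largest differences in that direction. It measured 2.14, 1.25 and 1.78 CPM with STA9090+PIK75 and 7.50, 9.66 and 9.28 CPM with STA9090+BGT226 (-2.37 ± 0.203, adjusted p = 1.41e-08).

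Against untreated cells, 13 of the 34 ATF4 targets were higher and 6 lower with STA9090+PIK75, where all genes gave 18.3% and 20.1%. With STA9090+BGT226, 3 were higher and 26 lower, against 19.4% and 20.4% of all genes. These contrasts share the untreated libraries and are given side by side. For ASNS the 2 values were 1.10 and -1.61, for PHGDH 0.63 and -1.29, and for SLC6A9 0.67 and -1.18.

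Cytosolic aminoacyl-tRNA synthetases, which load amino acids onto tRNAs, were higher with STA9090+PIK75 in 17 of 20 cases and lower in 1, with a median of 0.66. Methionyl-tRNA synthetase MARS (ENSG00000166986.15, chromosome 12, 57475445 to 57517569, plus strand) measured 224, 248 and 231 CPM with STA9090+PIK75 and 77.2, 71 and 75.2 CPM with STA9090+BGT226 (1.65 ± 0.0883, adjusted p = 1.96e-11). Tryptophanyl-tRNA synthetase WARS measured 106, 96.9 and 99.4 CPM with STA9090+PIK75 and 33.7, 34.4 and 38.1 CPM with STA9090+BGT226 (1.51 ± 0.0817, adjusted p = 2.08e-11). Both had every STA9090+PIK75 library above the untreated ones (127, 156 and 128 CPM and 63.6, 70.4 and 58.4 CPM) and every STA9090+BGT226 library below them. CARS and GARS, for cysteine and glycine, differed by 1.38 and 1.20. QARS, for glutamine, was the lower member (-0.40, adjusted p = 0.00175). LARS and DARS, for leucine and aspartate, were not called, with intervals of -0.07 to 0.26 and -0.19 to 0.23. Against untreated cells, 12 synthetases were higher and 0 lower with STA9090+PIK75, and 1 was higher and 15 lower with STA9090+BGT226.

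Since members of these lists are known to share a promoter element, their promoters were read from RefSeq (GRCh38.p14), over 300 bases from 250 before to 50 after each start in that annotation. ATF4 binds, with a C/EBP partner, a composite element searched here as TGATGNAA on both strands. It was present in 3.62% of all 35116 promoters, in 6 of the 16 synthetase promoters matched (37.5%), and in 6 of 28 promoters of ATF4 targets (21.4%). The first share covers every promoter of the annotation, whether or not its gene was tested here, and the list shares cover tested members. The proteasome, matrix and steroidogenesis lists described later had it in 2.33% (1 of 43), 3.03% (1 of 33) and 5.88% (1 of 17). Printed here are the 4 synthetases with the smallest adjusted p and ASNS, all chosen by their values, to show promoters with and without the element. Each runs 5′ to 3′ on the gene's strand from 150 bases before to 20 after that start, with the element in capitals.
MARS1 (chr12:57487918-57488087, plus strand): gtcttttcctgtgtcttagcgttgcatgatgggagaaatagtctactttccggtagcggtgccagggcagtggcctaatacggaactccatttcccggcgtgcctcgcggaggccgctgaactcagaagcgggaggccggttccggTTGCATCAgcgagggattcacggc
CARS1 (chr11:3057404-3057573, minus strand): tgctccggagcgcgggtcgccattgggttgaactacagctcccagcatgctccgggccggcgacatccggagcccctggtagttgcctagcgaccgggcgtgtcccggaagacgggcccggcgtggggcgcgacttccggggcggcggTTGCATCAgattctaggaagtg
WARS1 (chr14:100376308-100376477, minus strand): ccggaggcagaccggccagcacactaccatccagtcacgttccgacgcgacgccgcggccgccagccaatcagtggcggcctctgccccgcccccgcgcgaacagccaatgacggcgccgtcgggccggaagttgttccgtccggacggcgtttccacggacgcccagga
GARS1 (chr7:30594585-30594754, plus strand): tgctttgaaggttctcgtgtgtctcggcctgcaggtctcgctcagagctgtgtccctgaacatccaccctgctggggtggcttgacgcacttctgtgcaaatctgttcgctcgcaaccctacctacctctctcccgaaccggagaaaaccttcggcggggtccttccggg
ASNS (chr7:97872389-97872558, minus strand): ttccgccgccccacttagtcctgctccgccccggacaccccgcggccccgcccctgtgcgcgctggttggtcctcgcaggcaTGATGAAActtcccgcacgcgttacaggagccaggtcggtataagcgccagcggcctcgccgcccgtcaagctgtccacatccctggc
In MARS and CARS the element lies on the opposite strand, with its leftmost base 4 and 2 bases before the start, and in ASNS it lies on the gene's strand 68 bases before it. No match was found in the windows of WARS and GARS, which were called with the same sign. A match of letters is a description and shows no binding.

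**Figure D2:**
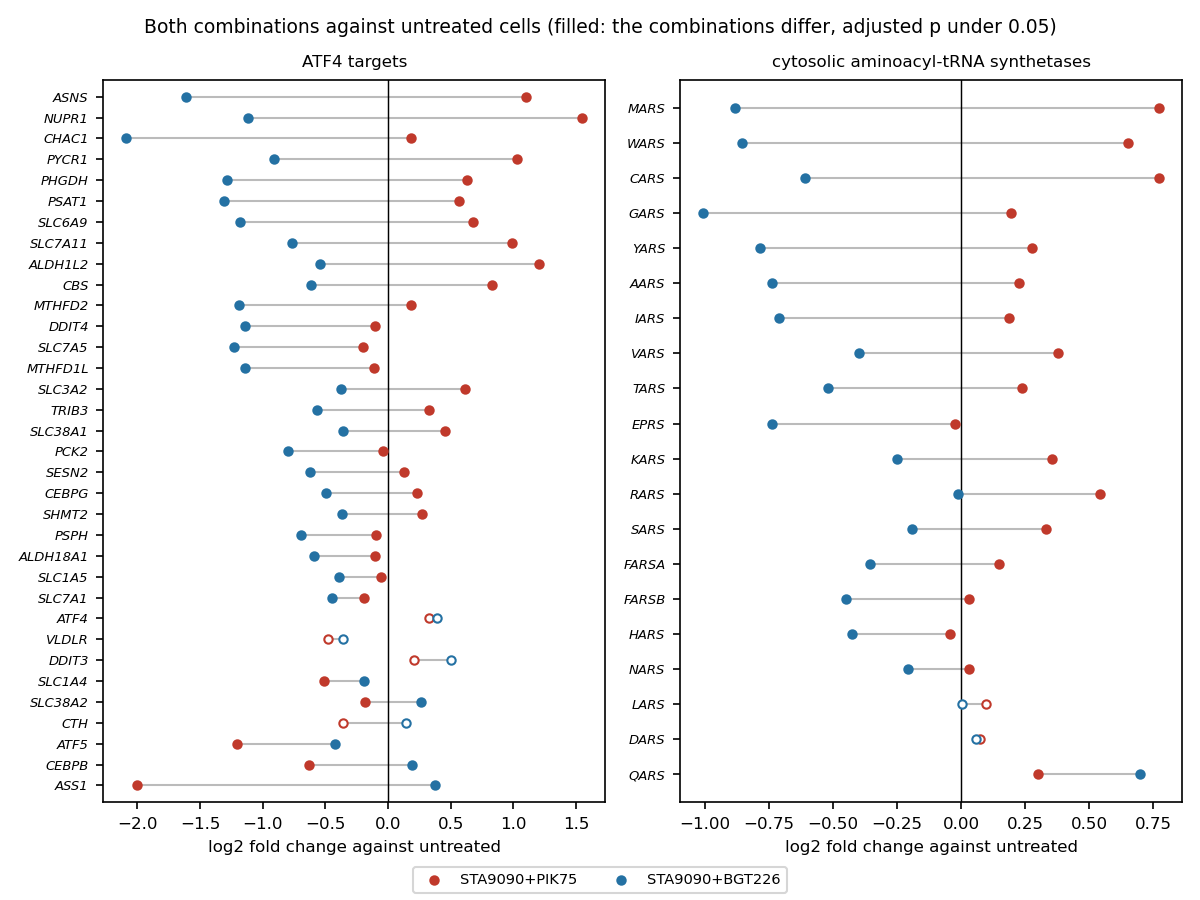
Log2 fold change against untreated cells (horizontal axes) of each ATF4 target and aminoacyl-tRNA synthetase tested, for STA9090+PIK75 (red) and STA9090+BGT226 (blue); lines join the 2 values of a gene, and filled points mark genes that differed between the combinations at an adjusted p under 0.05. Red lies to the right of blue for most members of both lists, and ASS1, at the foot of the left panel, has the opposite order.

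Of 49 proteasome genes, which degrade tagged proteins, 42 were higher and 2 lower with STA9090+PIK75, with a median of 0.52. PSMB6, a catalytic subunit of the core particle, measured 60.3, 61.8 and 60.8 CPM with STA9090+PIK75 and 24.8, 25.7 and 24.2 CPM with STA9090+BGT226 (1.29 ± 0.107, adjusted p = 8.22e-09). PSMB3, another core subunit, measured 78.1, 78.5 and 76.3 CPM with STA9090+PIK75 and 30.9, 29.9 and 35.2 CPM with STA9090+BGT226 (1.27 ± 0.116, adjusted p = 3.2e-08). Untreated libraries held 50.1, 54.6 and 45.2 CPM and 50.8, 71.8 and 50.9 CPM, above every STA9090+BGT226 library. PSMD2 of the regulatory particle and PSMB2 of the core differed by 0.85 and 0.79. Lower were NFE2L1 (-0.51), the factor that induces proteasome genes, and the assembly chaperone PSMG4 (-0.29). The lower count was 1 with DESeq2, without the filter, or without any single library other than STA9090+PIK75 replicate 3. Against untreated cells, 4 members were higher and 13 lower with STA9090+PIK75, and 1 was higher and 43 lower with STA9090+BGT226.

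Chaperones of the cytosol, the family that HSP90 inhibition acts on, differed in the same direction. Among 36 HSP90, HSP70 and co-chaperone genes, 23 were higher and 3 lower (median 0.37). Against untreated cells 17 were higher and 2 lower with STA9090+PIK75, and 9 higher and 15 lower with STA9090+BGT226. HSP90AA1, the stress-inducible HSP90 gene, measured 325, 355 and 338 CPM with STA9090+PIK75 and 212, 250.1 and 228 CPM with STA9090+BGT226 (0.56 ± 0.0989, adjusted p = 0.000108), and 197, 164 and 185 CPM in untreated cells. All treated libraries were above the untreated ones. HSP90AB1, the constitutive form, measured 685, 679.8 and 714 CPM with STA9090+PIK75 and 711, 657 and 682 CPM with STA9090+BGT226, which overlapped (0.02, 95% interval -0.17 to 0.21, adjusted p = 0.88). The constitutive HSP70 gene HSPA8 measured 1369.5, 1258 and 1230.0 CPM with STA9090+PIK75 and 689.7, 659.5 and 674 CPM with STA9090+BGT226 (0.93 ± 0.0851, adjusted p = 3.32e-08), so that the untreated libraries, at 994, 1046 and 926 CPM, lay between them. STIP1, which hands clients from HSP70 to HSP90, and HSPA4, an exchange factor for HSP70, differed by 0.99 and 0.91. The small heat shock gene CRYAB was lower (-1.04), as were BAG1 (-0.71) and DNAJB6 (-0.34).

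Of 18 mitochondrial chaperones and chaperonins, 13 were higher and 1 lower (median 0.59). CCT5, a subunit of the ring that folds actin and tubulin, measured 218, 222 and 215 CPM with STA9090+PIK75 and 118, 109.9 and 112 CPM with STA9090+BGT226 (0.95 ± 0.071, adjusted p = 2.17e-09), with 191, 178 and 163 CPM in untreated cells. The related subunits TCP1, CCT2 and CCT6A differed by 0.82, 0.77 and 0.70, and the mitochondrial HSP90 gene TRAP1 by 0.57. HSPD1 was lower (-0.38). Chaperones of the endoplasmic reticulum showed no shared direction, with 7 higher and 9 lower of 26 (median -0.05). HSP90B1, the HSP90 of that compartment, measured 73.3, 91.5 and 90.1 CPM with STA9090+PIK75 and 125, 137 and 136 CPM with STA9090+BGT226 (-0.64 ± 0.124, adjusted p = 0.000268), while HERPUD1 and HYOU1 were higher (0.61 and 0.52) and the stress sensor ERN1 lower (-0.66). Tubulins, which chaperonins fold, were higher in 10 of 16 cases and lower in 1 (median 0.45). TUBA1A measured 294, 262 and 289 CPM with STA9090+PIK75 and 124, 125 and 124 CPM with STA9090+BGT226 (1.18 ± 0.111, adjusted p = 5.07e-08). TUBB4A was the lower member (-0.75), with 2 lower in a fit of the 2 combinations alone, and reads of tubulins can be shared between near-identical copies.

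Cell cycle genes were mostly higher with STA9090+PIK75. Of 36 genes of G2/M and mitosis, 26 were higher and 0 lower (median 0.52), and of 44 genes of G1/S and DNA replication, 33 were higher and 2 lower (median 0.49). CDC20, an activator of the anaphase-promoting complex, measured 114, 113 and 118 CPM with STA9090+PIK75 and 55.3, 45.4 and 50.5 CPM with STA9090+BGT226 (1.19 ± 0.0867, adjusted p = 1.4e-09). KIF2C, a kinesin that corrects attachments of chromosomes, measured 63.3, 65 and 66.7 CPM with STA9090+PIK75 and 33.4, 29.4 and 30.1 CPM with STA9090+BGT226 (1.07 ± 0.0757, adjusted p = 9.79e-10). CDC25A, a phosphatase that activates cyclin-dependent kinases, measured 73.2, 65 and 72.4 CPM with STA9090+PIK75 and 31.5, 29.8 and 37.9 CPM with STA9090+BGT226 (1.08 ± 0.0914, adjusted p = 1.17e-08). In untreated cells the 3 genes were at 85.9, 106 and 94 CPM, 35.9, 42.4 and 37.8 CPM and 77.5, 96.1 and 85.2 CPM. CDC20 and KIF2C with STA9090+PIK75 were above that range, and CDC25A was below it.

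The mitotic factor FOXM1 differed by 0.98, the survivin gene BIRC5 by 1.14, the origin factors CDC6 and CDC45 by 0.92 and 0.85, and the clamp loader subunit RFC4 by 1.24. MKI67, the proliferation marker, did not follow, with 210.3, 205 and 248 CPM with STA9090+PIK75 and 209.8, 235 and 224 CPM with STA9090+BGT226 (-0.01, 95% interval -0.25 to 0.22, adjusted p = 0.939). Both groups were below untreated cells for it (-0.42 and -0.41). The kinase gene CDK6 (-0.69) and the cyclin gene CCNE1 (-0.25) were the lower members of the G1/S list, whose lower count was 1 without the filter and without STA9090+PIK75 replicate 1, STA9090+PIK75 replicate 2 or STA9090+BGT226 replicate 3. The G2/M list had 1 lower member without STA9090+BGT226 replicate 1. Against untreated cells, G2/M members were 8 higher and 5 lower with STA9090+PIK75 and 1 higher and 25 lower with STA9090+BGT226. For the G1/S list these counts were 5 and 14, then 3 and 37. Among all genes, 18.3% were higher and 20.1% lower with STA9090+PIK75, and 19.4% and 20.4% with STA9090+BGT226.

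Homologous recombination and Fanconi repair genes were higher in 11 of 26 cases and lower in 1 (median 0.27). The lower count was 0 without STA9090+PIK75 replicate 3 or STA9090+BGT226 replicate 2, and 2 without STA9090+PIK75 replicate 2 or STA9090+BGT226 replicate 1. RAD54L, a motor of strand exchange, measured 33.9, 35.3 and 35.1 CPM with STA9090+PIK75 and 16.7, 14.2 and 16.5 CPM with STA9090+BGT226 (1.14 ± 0.0817, adjusted p = 1.22e-09), and 23.8, 26.7 and 25.5 CPM in untreated cells. FANCD2 differed by 1.02. Nucleotide synthesis genes were higher in 16 of 27 cases and lower in 3 (median 0.46), including the dUTPase DUT (0.85), thymidylate synthase TYMS (0.82), CTP synthase CTPS1 (0.70) and CAD (0.80), which opens pyrimidine synthesis. IMPDH2, PRPS2 and ADSS were lower (-0.29, -0.36 and -0.39). The lower count was 1 with DESeq2 and without STA9090+PIK75 replicate 3, STA9090+BGT226 replicate 2 or STA9090+BGT226 replicate 3. Of 5 genes listed as CDK inhibitors, among them the CDK phosphatase gene CDKN3, 2 were higher. They were CDKN3 (0.85 ± 0.157, adjusted p = 0.000177) and CDKN2C (0.18, adjusted p = 0.0448), and the CDKN2C call was lost under 7 alternatives, among them leaving out any of 5 single libraries.

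**Figure D3:**
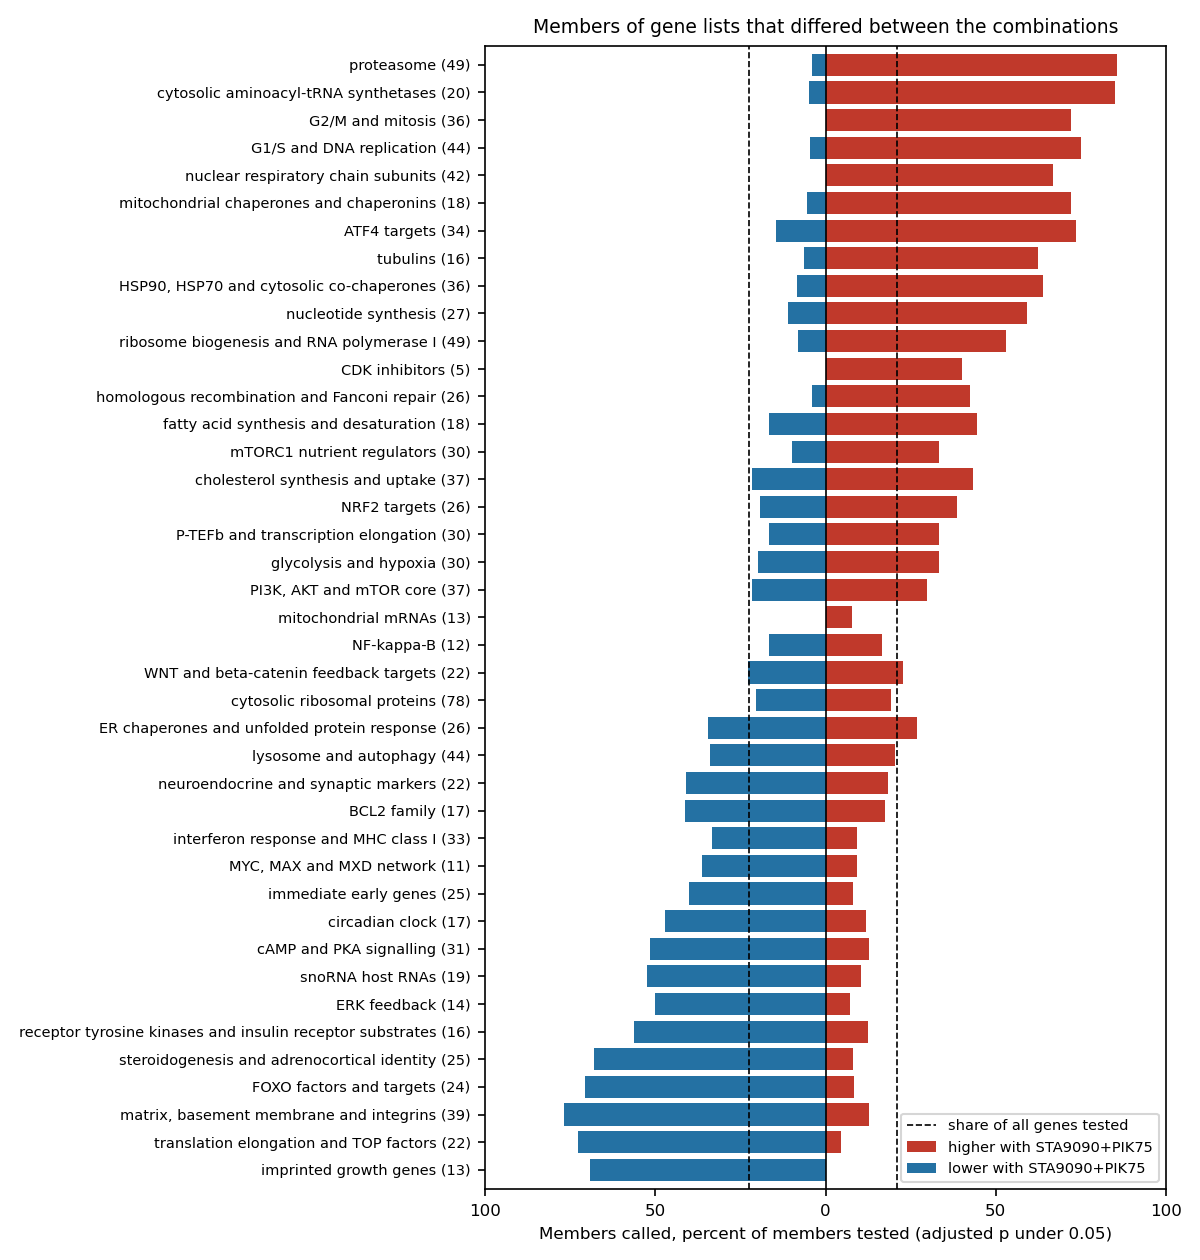
Share of tested members called higher (red, right) or lower (blue, left) with STA9090+PIK75 at an adjusted p under 0.05, for 41 gene lists with the number tested in parentheses; dashed lines mark the shares among all genes, 20.9% and 22.4%. Proteasome and synthetase genes lead the higher side, and matrix genes, elongation factors and FOXO targets the lower side.

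Lists of the translation machinery divided. Members of a list of translation elongation and TOP factors were lower with STA9090+PIK75 in 16 of 22 cases and higher in 1, with a median of -0.50. TOP stands for the terminal oligopyrimidine start of mRNAs whose translation mTOR controls. The list includes regulators such as EEF2K and LARP1 and leaves out cytosolic ribosomal proteins, which are given below as a separate list. The higher count was 0 without the filter and without any single library of the 2 combinations. EEF2, which moves the ribosome along, measured 1725, 1787 and 1726 CPM with STA9090+PIK75 and 3966, 3447 and 3734 CPM with STA9090+BGT226 (-1.09 ± 0.108, adjusted p = 1.05e-07). The STA9090+PIK75 libraries overlapped the untreated range, at 1626, 1919 and 1547 CPM, and those of STA9090+BGT226 were above it. EIF2S3, EEF1B2 and HNRNPA1 differed by -0.90, -0.84 and -0.80.

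Host RNAs of small nucleolar RNAs showed the same order in 10 of 19 cases, with 2 in the other direction (median -0.39). The 2 became 1 with DESeq2, a replicate block or no filter, and without STA9090+PIK75 replicate 1 or 2 or STA9090+BGT226 replicate 2 or 3. C6orf48 measured 20.4, 20.6 and 19.6 CPM with STA9090+PIK75 and 67.1, 81.6 and 70.9 CPM with STA9090+BGT226 (-1.86 ± 0.0883, adjusted p = 4.78e-12), and 13, 14.9 and 13 CPM in untreated cells. ZFAS1 measured 19.8, 19.1 and 19.2 CPM with STA9090+PIK75 and 59, 62.6 and 57.8 CPM with STA9090+BGT226 (-1.63 ± 0.0949, adjusted p = 5.61e-11), and 9.76, 14.3 and 12.1 CPM in untreated cells. The level of GAS5 is known to depend on translation and mTOR activity. GAS5 measured 101, 82.1 and 85.7 CPM with STA9090+PIK75 and 149, 154 and 143 CPM with STA9090+BGT226 (-0.73 ± 0.0886, adjusted p = 1.35e-06). All 6 treated libraries were above the untreated ones for these 3 genes, and the STA9090+BGT226 libraries were the highest. Overlapping or antisense reads at these loci are uncertain, since the strand setting of the counting is not stated. EPB41L4A-AS1, an antisense RNA, carries the same caution (-1.43).

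Cytosolic ribosomal proteins divided nearly evenly, with 15 higher and 16 lower of 78 (median -0.06), near the shares among all genes. The number of lower members dropped to 10 without STA9090+BGT226 replicate 3. FAU, RPL35 and RPL19 were higher (0.90, 0.75 and 0.66), and RPL28 was lower (-0.90). Reads of these genes can be shared with their many pseudogenes. Against untreated cells, 47 were higher and 1 lower with STA9090+PIK75, and 45 higher and 4 lower with STA9090+BGT226. Ribosome biogenesis and RNA polymerase I genes were higher in 26 of 49 cases and lower in 4 (median 0.26). The lower count was 2 without STA9090+PIK75 replicate 3, STA9090+BGT226 replicate 1 or STA9090+BGT226 replicate 3, and 1 without the filter. NOP2, a methyltransferase of ribosomal RNA, measured 39.6, 35.3 and 40.7 CPM with STA9090+PIK75 and 20.6, 20.4 and 20.7 CPM with STA9090+BGT226 (0.90 ± 0.0707, adjusted p = 3.97e-09), with untreated libraries between them at 31.7, 33.2 and 31.5 CPM. NOLC1, DKC1 and NOP10 differed by 0.54, 0.50 and 0.82.

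Nuclear genes for respiratory chain subunits were higher in 28 of 42 cases and lower in 0 (median 0.39). The lower count was 1 without the filter, in a fit of the 2 combinations alone and without STA9090+BGT226 replicate 1. COX6A1 measured 115, 103 and 104 CPM with STA9090+PIK75 and 52.4, 52.6 and 50.6 CPM with STA9090+BGT226 (1.05 ± 0.0924, adjusted p = 2.07e-08). ATP5MC1, COX5A and NDUFA8 differed by 1.06, 0.80 and 0.76. Against untreated cells, 3 members were higher and 3 lower with STA9090+PIK75, and 1 was higher and 30 lower with STA9090+BGT226. Of the 13 mitochondrial mRNAs, MT-ND3 was the member called, at 2773, 1289.5 and 1818 CPM against 1175, 1303 and 1211 CPM (0.67 ± 0.238, adjusted p = 0.0269), and its groups overlapped. That call was lost without STA9090+PIK75 replicate 1, STA9090+BGT226 replicate 1 or STA9090+BGT226 replicate 3 (adjusted p = 0.2597, 0.07453 and 0.05995). MT-CO1 was not called (-0.31, 95% interval -0.67 to 0.04), except without the count filter and in a fit of the 2 combinations alone (adjusted p = 0.008685 and 0.03434). The number of mitochondrial mRNAs called higher was 7 without the filter and 3 in the fit of the 2 combinations alone.

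FOXO factors, which AKT holds back, and their targets were mostly lower with STA9090+PIK75. Of 24 FOXO factors and targets, 17 were lower and 2 higher (median -0.57). The list does not separate targets that FOXO switches on from those it represses, such as the cyclin genes CCND1 and CCND2. TXNIP, which restrains glucose uptake, measured 43.6, 46.5 and 45.6 CPM with STA9090+PIK75 and 158, 143 and 143 CPM with STA9090+BGT226 (-1.71 ± 0.0833, adjusted p = 5.95e-12). FOXO1 itself measured 14.9, 16 and 17.2 CPM with STA9090+PIK75 and 44.6, 44.2 and 45.1 CPM with STA9090+BGT226 (-1.47 ± 0.0782, adjusted p = 1.96e-11). Untreated cells held 33.7, 38.7 and 30.5 CPM of TXNIP and 18.5, 17.6 and 21.3 CPM of FOXO1, so that both combinations were above untreated cells for TXNIP, while FOXO1 was below them with STA9090+PIK75 and above with STA9090+BGT226. TRIB2 and KLHL24 differed by -1.36 and -1.16, and CCND2 (0.77) and PDK4 (0.38) were the higher members. Against untreated cells the list had 7 higher and 11 lower members with STA9090+PIK75, and 12 higher and 3 lower with STA9090+BGT226.

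Receptor tyrosine kinases and insulin receptor substrates, many of them induced through FOXO when PI3K is blocked, were lower in 9 of 16 cases and higher in 2 (median -0.39). The insulin receptor gene INSR measured 74.1, 80.1 and 77 CPM with STA9090+PIK75 and 145, 137 and 132 CPM with STA9090+BGT226 (-0.84 ± 0.0642, adjusted p = 2.91e-09), and 87.8, 86.3 and 79.5 CPM in untreated cells. FGFR4 measured 8.21, 11.4 and 10.7 CPM with STA9090+PIK75 and 33.7, 28.3 and 29.6 CPM with STA9090+BGT226 (-1.58 ± 0.124, adjusted p = 3.97e-09), and 40.1, 49.9 and 43.4 CPM in untreated cells. Of these 3 groups the STA9090+BGT226 libraries were the highest for INSR and the STA9090+PIK75 libraries the lowest for FGFR4. MET and DDR1 differed by -1.26 and -0.63, and ERBB3 and KIT were the higher members (1.62 and 1.37), of which 1 was called without STA9090+PIK75 replicate 2.

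The PI3K, AKT and mTOR genes themselves divided, with 11 higher and 8 lower of 37 (median 0.01). EIF4EBP1 encodes the repressor of cap-dependent translation that mTOR inactivates. It measured 36.5, 39 and 40.6 CPM with STA9090+PIK75 and 13.7, 11.8 and 12.5 CPM with STA9090+BGT226 (1.62 ± 0.108, adjusted p = 4.31e-10), and 32.6, 33 and 30.6 CPM in untreated cells. MTOR measured 156, 171 and 166 CPM with STA9090+PIK75 and 126, 114 and 122 CPM with STA9090+BGT226 (0.45 ± 0.0692, adjusted p = 2.48e-05), and PIK3CA, the p110alpha gene, 6.43, 7.36 and 8.29 CPM with STA9090+PIK75 and 10.1, 12.5 and 12.5 CPM with STA9090+BGT226 (-0.67 ± 0.129, adjusted p = 0.000273). The groups did not overlap for any of these 3 genes. PIK3CB, the p110beta gene, differed by -0.38, PIK3R3 by 0.82 and MAPKAP1 of mTOR complex 2 by 0.60. Among 30 nutrient regulators of mTOR complex 1, 10 were higher and 3 lower (median 0.14). They included the lysosomal factor MITF (1.40), LAMTOR2 (1.04), SEC13 (0.70) and SESN2 (0.75), the last also an ATF4 target.

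ERK feedback genes, which report on the neighbouring MAP kinase pathway, were lower in 7 of 14 cases and higher in 1 (median -0.23). ETV4 measured 13, 14.3 and 13.5 CPM with STA9090+PIK75 and 49.9, 43.1 and 46.7 CPM with STA9090+BGT226 (-1.77 ± 0.115, adjusted p = 2.84e-10), and 19.8, 24.9 and 20.6 CPM in untreated cells, so that the combinations lay on opposite sides. SPRED1 and DUSP6 differed by -1.25 and -0.68, and PHLDA1 was the higher member (0.50). Immediate early genes were lower in 10 of 25 cases and higher in 2 (median -0.15), or higher in 4 without STA9090+BGT226 replicate 1. JUN measured 14.6, 15.4 and 14.3 CPM with STA9090+PIK75 and 26.9, 22.3 and 21.9 CPM with STA9090+BGT226 (-0.68 ± 0.0987, adjusted p = 1.34e-05), and JUNB, JUND and ZFP36L1 differed by -0.61, -0.58 and -0.62.

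HEXIM1 encodes the inhibitor of P-TEFb, the kinase complex that releases paused RNA polymerase II. It measured 27.9, 25.3 and 23.7 CPM with STA9090+PIK75 and 71.7, 59.8 and 67.6 CPM with STA9090+BGT226 (-1.38 ± 0.0819, adjusted p = 7.52e-11), and 59.8, 56.2 and 57.5 CPM in untreated cells. The STA9090+PIK75 libraries were below both other groups. Its list, P-TEFb and transcription elongation, showed no shared direction, with 10 higher and 5 lower of 30 (median 0.01), and 6 higher without STA9090+PIK75 replicate 2. NELFE, of the pausing complex, and CCNK, a cyclin of elongation, were higher (0.83 and 0.61), and AFF1 was lower (-0.47). In the MYC, MAX and MXD network 4 of 11 genes were lower and 1 higher (median -0.19), or 2 higher with RLE size factors and without STA9090+PIK75 replicate 2. MXI1, MNT and MYC were lower (-1.34, -0.60 and -0.44) and MXD4 was higher (0.73).

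Adrenocortical genes were mostly lower with STA9090+PIK75. Of 25 genes of steroidogenesis and adrenocortical identity, 17 were lower and 2 higher (median -0.68). CYP17A1, the branch-point enzyme towards cortisol and androgens (ENSG00000148795.7, chromosome 10, 102830531 to 102837533, minus strand), measured 55.6, 51.1 and 53.4 CPM with STA9090+PIK75 and 159, 148 and 140.0 CPM with STA9090+BGT226 (-1.48 ± 0.0836, adjusted p = 3.58e-11). HSD3B2, which makes progesterone from pregnenolone, measured 26, 30.2 and 27.1 CPM with STA9090+PIK75 and 113, 106 and 94.4 CPM with STA9090+BGT226 (-1.91 ± 0.102, adjusted p = 1.96e-11). STAR, which delivers cholesterol to the mitochondrion, measured 158, 165 and 162 CPM with STA9090+PIK75 and 257, 260.0 and 259 CPM with STA9090+BGT226 (-0.68 ± 0.0786, adjusted p = 7.91e-07). Untreated cells held 266, 282 and 241 CPM of CYP17A1, 45.6, 60.3 and 43.8 CPM of HSD3B2 and 348, 387 and 335 CPM of STAR. Both combinations were therefore below untreated cells for CYP17A1 and STAR, whereas HSD3B2 was above untreated cells with STA9090+BGT226 and below with STA9090+PIK75.

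CYP21A2, the 21-hydroxylase, measured 262, 261 and 247 CPM with STA9090+PIK75 and 1291, 1201 and 1146 CPM with STA9090+BGT226 (-2.24 ± 0.124, adjusted p = 2.82e-11), and is uncertain because it shares reads with a pseudogene copy. The inhibin subunit INHA, an adrenocortical marker, measured 0.714, 0.368 and 0.222 CPM with STA9090+PIK75 and 4.23, 2.87 and 3.90 CPM with STA9090+BGT226 (-3.10 ± 0.314, adjusted p = 1.34e-07). MC2R, the receptor for corticotropin, and its partner MRAP differed by -2.10 and -1.69. The cholesterol side chain cleavage enzyme CYP11A1 differed by -0.96, the transcription factor GATA6 by -1.53, and the lineage factor NR5A1 (SF1) by -0.37. NR4A1 and CYB5A were the higher members (0.53 and 0.59), and NR0B1 was not called (-0.38, 95% interval -0.85 to 0.08). Against untreated cells, 2 members were higher and 20 lower with STA9090+PIK75, and 8 higher and 11 lower with STA9090+BGT226.

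Genes of cAMP and PKA signalling, the pathway of the corticotropin receptor, were lower in 16 of 31 cases and higher in 4 (median -0.34). PDE2A, a phosphodiesterase that degrades cyclic nucleotides, measured 157, 168 and 184 CPM with STA9090+PIK75 and 511, 464 and 488 CPM with STA9090+BGT226 (-1.52 ± 0.0858, adjusted p = 3.56e-11), and 351, 404 and 377 CPM in untreated cells. PDE7B and AKAP1 differed by -0.82 and -0.67, and the low-count gene ADCY7 by -2.64. Among 13 imprinted growth genes 9 were lower and 0 higher (median -0.87). IGF2, the growth factor overexpressed in most adrenocortical carcinomas, measured 3548, 3072 and 3296 CPM with STA9090+PIK75 and 6579, 6596 and 6477 CPM with STA9090+BGT226 (-0.99 ± 0.0911, adjusted p = 3.82e-08), with untreated libraries between them at 5405, 4609.5 and 4853 CPM. Its reads may be shared with the readthrough INS-IGF2. PEG3 and MEG3 measured 102, 120.3 and 135 CPM and 149, 161 and 168 CPM with STA9090+PIK75, against 306, 317 and 319 CPM and 398, 596 and 437 CPM (-1.40 and -1.58). IGF2R differed by -0.87.

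WNT and beta-catenin feedback genes, the pathway activated by a CTNNB1 mutation in this line, were 5 higher and 5 lower of 22 (median -0.05), and 3 lower without STA9090+PIK75 replicate 1, STA9090+PIK75 replicate 2 or STA9090+BGT226 replicate 3. ZNRF3, AXIN2, TNFRSF19 and LGR5 were among the higher members (0.50, 0.33, 0.42 and 0.87), and LGR4, TCF7L2, CTNNB1 and NKD1 among the lower (-0.62, -0.31, -0.30 and -0.20). Both counts are near the shares among all genes. Neuroendocrine and synaptic markers, which adrenocortical tumours often carry, were lower in 9 of 22 cases and higher in 4 (median -0.25), or higher in 2 in a fit of the 2 combinations alone. VGF measured 121, 119 and 109.7 CPM with STA9090+PIK75 and 277, 296 and 242 CPM with STA9090+BGT226 (-1.22 ± 0.125, adjusted p = 1.59e-07). GNAO1, SYP and NCAM1 differed by -1.17, -0.88 and -0.65. The higher members were GAP43 (2.63) and SCG5 (1.71), both at low counts, CPLX1 (0.46) and NEFL (0.37). GAP43, a growth cone protein, measured 1.52, 0.957 and 0.740 CPM with STA9090+PIK75 and 0, 0.151 and 0.296 CPM with STA9090+BGT226.

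**Figure D4:**
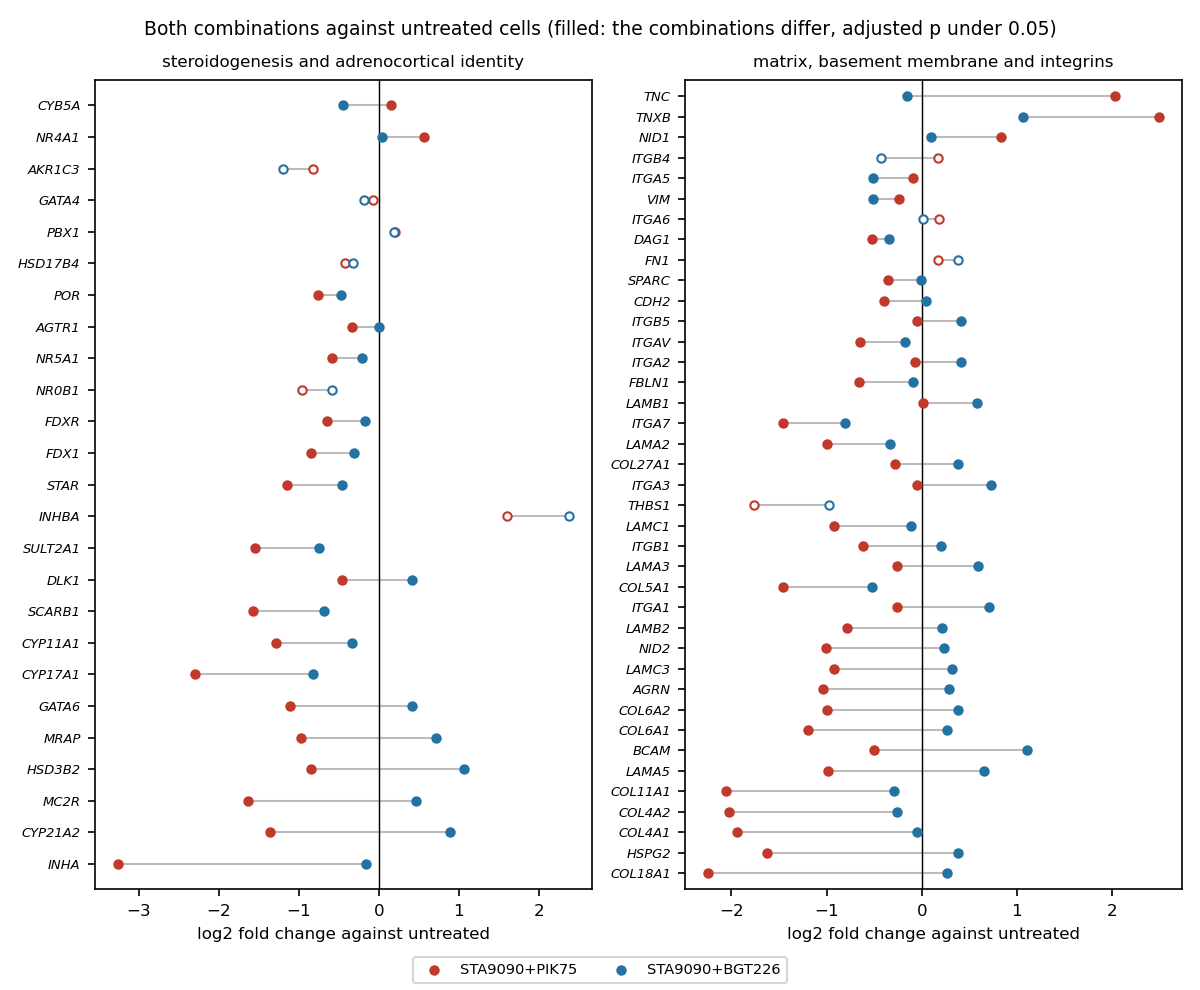
Log2 fold change against untreated cells (horizontal axes) of steroidogenesis and adrenocortical genes (left) and of matrix, basement membrane and integrin genes (right), for STA9090+PIK75 (red) and STA9090+BGT226 (blue); filled points mark genes that differed between the combinations at an adjusted p under 0.05. For most members red lies to the left of blue, and TNC, TNXB and NID1, at the top of the right panel, have the opposite order.

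Matrix, basement membrane and integrin genes were lower in 30 of 39 cases and higher in 5, with a median of -0.78. COL18A1, a basement membrane collagen (ENSG00000182871.15, chromosome 21, 45405137 to 45513720, plus strand), measured 7.77, 9.35 and 7.33 CPM with STA9090+PIK75 and 47.9, 48.3 and 44 CPM with STA9090+BGT226 (-2.51 ± 0.0994, adjusted p = 6.54e-13). HSPG2, which encodes the proteoglycan perlecan, measured 52.6, 60.1 and 61 CPM with STA9090+PIK75 and 248, 216 and 232 CPM with STA9090+BGT226 (-2.0 ± 0.0957, adjusted p = 4.87e-12). COL4A2, one of the network-forming collagens, measured 78.4, 80.6 and 81.5 CPM with STA9090+PIK75 and 275, 256 and 286 CPM with STA9090+BGT226 (-1.77 ± 0.0869, adjusted p = 5.95e-12). In untreated cells the 3 were at 37.1, 37.5 and 41.8 CPM, 179, 156 and 200.4 CPM and 344, 289 and 345 CPM. The STA9090+PIK75 libraries were below both other groups for each gene.

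The partner chain COL4A1 differed by -1.89, the laminin chain LAMA5 by -1.64, the laminin receptor BCAM by -1.61 and COL6A2 by -1.37. The 5 higher members were TNC and TNXB, which encode tenascins (2.19 and 1.43), NID1 (0.74), ITGA5 (0.42) and VIM (0.27). Against untreated cells, 3 members were higher and 25 lower with STA9090+PIK75, and 15 higher and 6 lower with STA9090+BGT226. Among the 15 largest differences downward outside the list, AEBP1, a collagen-binding protein, differed by -2.46, the crosslinking enzyme TGM2 by -2.22, the secreted CCN3 by -2.21 and the membrane protease MMP15 by -2.20.

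AHNAK, which encodes a very large scaffold protein, measured 12, 14.4 and 14.4 CPM with STA9090+PIK75 and 109, 92.9 and 89 CPM with STA9090+BGT226 (-2.83 ± 0.13, adjusted p = 3.41e-12), and 41.3, 32.4 and 40.3 CPM in untreated cells. It was thus lower than untreated in one combination and higher in the other. FAM166B measured 1.87, 1.69 and 2.0 CPM with STA9090+PIK75 and 14.3, 16.7 and 15.2 CPM with STA9090+BGT226 (-3.05 ± 0.149, adjusted p = 5.95e-12), and 16.1, 19.8 and 16.2 CPM in untreated cells. FAM107A, TMPRSS9, AJM1, EMID1 and SHOC1 completed that end (-2.45, -2.38, -2.19, -2.15 and -2.14). CU639417.1 had the largest fitted difference but was at 0 in all untreated and STA9090+PIK75 libraries and at 14.1, 7.32 and 14.9 CPM with STA9090+BGT226. It lies on chromosome 21 and is uncertain, since its reads may be shared with near-identical copies, and no fold is given.

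At the high end outside amino acid supply, TSTA3, which makes GDP-fucose, measured 27.7, 30.7 and 30.3 CPM with STA9090+PIK75 and 6.38, 6.72 and 7.27 CPM with STA9090+BGT226 (2.12 ± 0.12, adjusted p = 3.61e-11), and 6.43, 8.25 and 5.84 CPM in untreated cells. COL7A1, the anchoring fibril collagen, measured 15.4, 18.5 and 13.9 CPM with STA9090+PIK75 and 3.43, 6.11 and 3.96 CPM with STA9090+BGT226 (1.83 ± 0.185, adjusted p = 1.31e-07). SNCAIP, which encodes synphilin, measured 12.1, 13.2 and 13.2 CPM with STA9090+PIK75 and 3.91, 3.55 and 4.08 CPM with STA9090+BGT226 (1.74 ± 0.144, adjusted p = 8.85e-09), and the NOTCH target HEY2 differed by 1.56. For these 4 genes the STA9090+PIK75 libraries were the higher ones, and the rule that named them required no overlap. NME1-NME2, a readthrough of adjacent genes (3.07), and H2BFS, one of many near-identical histone genes (2.89), are uncertain. The H2BFS call was lost with DESeq2 (adjusted p = 0.1437) and without STA9090+BGT226 replicate 1 or 3 (0.05048 and 0.06198).

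Lipid genes moved within both combinations. Of 37 genes of cholesterol synthesis and uptake, 16 were higher and 8 lower with STA9090+PIK75 than with STA9090+BGT226 (median 0.20). Against untreated cells, 2 were higher and 24 lower with STA9090+PIK75, and 4 higher and 24 lower with STA9090+BGT226. ACAT2, which opens the pathway, measured 80.3, 78.1 and 77.8 CPM with STA9090+PIK75 and 28.5, 25.8 and 28 CPM with STA9090+BGT226 (1.52 ± 0.0823, adjusted p = 2.08e-11), and 92.5, 83.4 and 83.6 CPM in untreated cells. FDPS, which makes farnesyl diphosphate, measured 154, 145 and 162 CPM with STA9090+PIK75 and 92, 80.4 and 94.1 CPM with STA9090+BGT226 (0.79 ± 0.0811, adjusted p = 1.59e-07), and 283, 293 and 269.6 CPM in untreated cells. Every treated library was below the untreated ones for both genes. The log2 fold changes of the second combination against untreated cells were -1.66 and -1.67. The efflux pump ABCA1 and the esterifying enzyme SOAT1 were lower (-1.81 and -0.80).

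Of 18 genes of fatty acid synthesis and desaturation, 8 were higher and 3 lower (median 0.17). ACLY, which makes acetyl-CoA for this pathway, measured 199.7, 216 and 231 CPM with STA9090+PIK75 and 136, 115 and 132 CPM with STA9090+BGT226 (0.76 ± 0.0918, adjusted p = 1.4e-06), and 339, 405 and 347 CPM in untreated cells, above all treated libraries. ACSS2 was higher (0.91), and ACACB and SCD5 were lower (-0.50 and -0.50). None of the 18 was higher than untreated in either combination, with 12 lower in the first and 14 in the second.

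Glycolysis and hypoxia genes were 10 higher and 6 lower of 30 (median 0.00). ENO1, PGAM1 and PGK1 were higher (0.93, 0.76 and 0.55), and PFKFB3 was lower (-0.68). Lysosome and autophagy genes were 9 higher and 15 lower of 44 (median -0.07). GABARAPL1, an autophagosome protein induced by FOXO, measured 29.6, 23 and 28.1 CPM with STA9090+PIK75 and 64.6, 63.8 and 63.2 CPM with STA9090+BGT226 (-1.25 ± 0.0909, adjusted p = 1.39e-09). The lysosomal hydrolases CTSA, CTSF and TPP1 were lower (-0.97, -0.95 and -0.95). NRF2 targets, the antioxidant genes, were 10 higher and 5 lower of 26 (median 0.23), with TXN and FTH1 higher (0.82 and 0.71).

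Circadian clock genes were lower in 8 of 17 cases and higher in 2 (median -0.26). NR1D1, a repressor of the clock, measured 12.2, 9.71 and 10.7 CPM with STA9090+PIK75 and 37.2, 33.2 and 37.9 CPM with STA9090+BGT226 (-1.73 ± 0.0966, adjusted p = 3.02e-11), and 41.6, 39.6 and 41.4 CPM in untreated cells. NFIL3, which opposes the activators DBP and TEF at shared sites, measured 22.1, 24.5 and 22.6 CPM with STA9090+PIK75 and 9.33, 9.21 and 8.39 CPM with STA9090+BGT226 (1.37 ± 0.109, adjusted p = 4.74e-09). DBP and TEF were lower (-1.05 and -1.21). The STA9090+PIK75 libraries were thus the lowest for NR1D1 and the highest for NFIL3. Interferon response and MHC class I genes were lower in 11 of 33 cases and higher in 3 (median -0.14), and 5 higher in a fit of the 2 combinations alone. TAPBP, BST2 and IRF9 were lower (-0.82, -0.90 and -1.17), and OAS3 was higher (0.67). NF-kappa-B genes were 2 higher and 2 lower of 12. They were NFKB2 (0.52), NFKBIB (0.68), TNFAIP3 (-0.85) and NFKBIA (-0.29), and the last call was lost without STA9090+PIK75 replicate 3 (adjusted p = 0.05864).

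Regulators of apoptosis in the BCL2 family were lower in 7 of 17 cases and higher in 3 (median -0.23). MCL1, which protects cells and is short-lived, measured 115, 109.8 and 119 CPM with STA9090+PIK75 and 155, 148 and 149 CPM with STA9090+BGT226 (-0.39 ± 0.0754, adjusted p = 0.000261), and 151, 136 and 146 CPM in untreated cells. BCL2L11, which encodes the death-promoting BIM, measured 10.1, 10.7 and 10.7 CPM with STA9090+PIK75 and 18.8, 17 and 14.8 CPM with STA9090+BGT226 (-0.68 ± 0.121, adjusted p = 0.00013). The protective BCL2L1 and the death-promoting BIK were higher (0.41 and 1.33). Members that protect and members that kill were thus found in both directions.

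The same pair of PI3K inhibitors was also compared without STA9090, and the 2 differences were tested against each other. PIK75 alone minus BGT226 alone called 2603 genes higher (16.5%) and 2442 lower (15.5%). The interaction, which is the difference between the combinations minus that between the single agents, was above 0 in 580 genes (3.67%) and below 0 in 959 (6.07%). In the ATF4 list 7 members were above and 2 below, in the synthetases 8 and 0, in the proteasome 9 and 0, in the cytosolic chaperones 13 and 0 and in the chaperonins 6 and 0. Matrix genes had 1 above and 17 below, steroidogenesis 0 and 12, imprinted genes 0 and 5, and cAMP signalling 0 and 6. The FOXO list had 0 above and 1 below, and snoRNA hosts had 1 above and 0 below. G2/M genes had 0 above and 3 below, the cholesterol list 0 and 7 and cytosolic ribosomal proteins 6 and 0. Between the single agents, 26 ATF4 targets were higher and 7 lower. These counts were 14 and 0 for synthetases, 30 and 1 for the proteasome and 13 and 6 for cytosolic chaperones. They were 5 and 19 for matrix genes, 3 and 11 for steroidogenesis and 33 and 0 for G2/M. The cholesterol list had 21 and 2, and cytosolic ribosomal proteins 2 and 39.

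HSPG2 differed by -2.0 between the combinations and by -0.33 between the single agents (interaction -1.67 ± 0.131, adjusted p = 5.81e-07). CYP17A1 gave -1.48 and -0.31 (-1.17 ± 0.116, adjusted p = 5.38e-06), and PDE2A gave -1.52 and -0.32 (-1.21 ± 0.119, adjusted p = 5.38e-06). HSPA8 gave 0.93 and 0.23 (0.70 ± 0.12, adjusted p = 0.000829). TXNIP gave -1.71 and -1.64 (interaction -0.06, adjusted p = 0.79), and EEF2 gave -1.09 and -0.99 (-0.10, adjusted p = 0.739). The first 4 genes therefore differed more between the combinations than between the single agents, and for TXNIP and EEF2 no such change was detected.

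The interactions furthest below 0 were those of FAM166B, CUX2, PIEZO1 and ADAMTS7. The mechanosensitive channel gene PIEZO1 measured 5.89, 8.02 and 8.07 CPM with STA9090+PIK75 and 25, 22.7 and 19.9 CPM with STA9090+BGT226. With the single agents it measured 21.1, 20.5 and 23 CPM under PIK75 and 18, 20.8 and 18.2 CPM under BGT226. It was low in the STA9090+PIK75 libraries alone among these 4 groups (interaction -1.79 ± 0.166, adjusted p = 3.01e-06). The transcription factor gene CUX2 measured 1.79, 2.21 and 2.15 CPM with STA9090+PIK75 and 10.1, 6.79 and 9.63 CPM with STA9090+BGT226, and 6.19, 6.93 and 9.30 CPM under PIK75 (-1.95 ± 0.303, adjusted p = 0.000329).

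Furthest above 0 were SLC35F2, FOSB, EGR1 and C8orf33. EGR1, an immediate early transcription factor, measured 43.6, 37.4 and 36 CPM with STA9090+PIK75 and 43, 50.03 and 37.1 CPM with STA9090+BGT226, which overlapped, and its difference was not called (95% interval -0.39 to 0.09). Under the single agents it measured 11.3, 14.1 and 15.7 CPM with PIK75 and 31.5, 36 and 36.2 CPM with BGT226, a difference of -1.35. FOSB showed a like pattern, with -0.91 between the single agents and 0.30 between the combinations (adjusted p = 0.0607). The FOSB difference passed the threshold with RLE size factors, in a fit of the 2 combinations alone and without STA9090+BGT226 replicate 1 (adjusted p = 0.04934, 0.04006 and 0.03905).

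Transcript length differed between the 2 directions. Over 13001 protein-coding genes, the median length of the longest annotated transcript was 2981 bases for genes higher with STA9090+PIK75, 4820 bases for lower genes and 3691.5 bases for genes not called. Genes were cut by transcript length into 5 bins of equal size. In the bin with the shortest transcripts, 36.3% were higher and 11.6% lower. In the bin with the longest, 12.1% were higher and 39.6% lower. The shift was present against untreated cells in opposite directions. From the shortest to the longest bin, the median log2 fold change went from 0.03 to -0.06 with STA9090+PIK75 and from -0.19 to 0.12 with STA9090+BGT226. For PIK75 alone minus BGT226 alone it went from 0.15 to -0.06. The span of the gene on the chromosome differed too, with medians of 24.3 kb for higher genes, 46.8 kb for lower genes and 34.7 kb for genes not called.

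**Figure D5:**
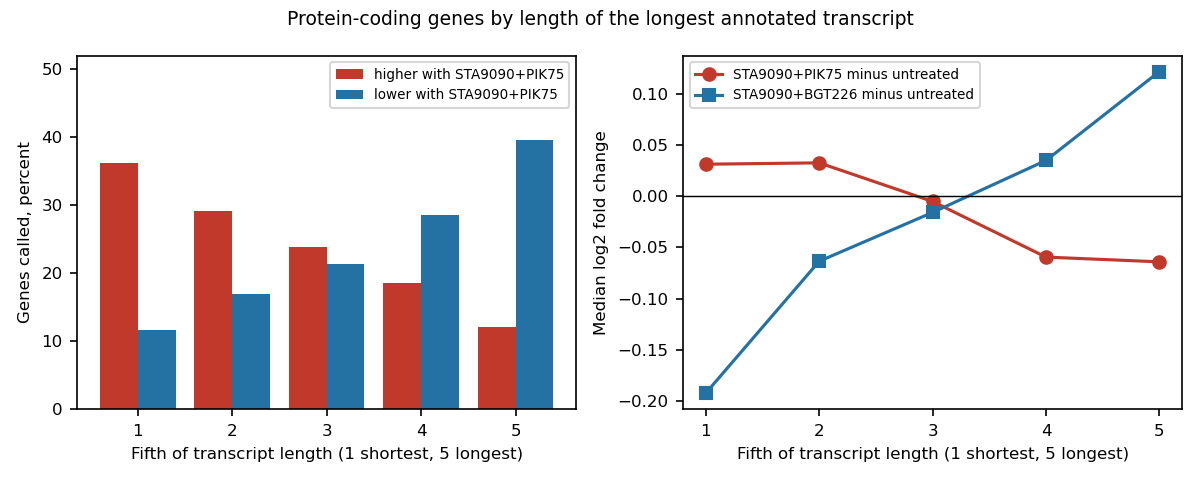
Left, percent of genes called higher (red) or lower (blue) with STA9090+PIK75 in each of 5 bins of transcript length, the shortest at 1; right, median log2 fold change against untreated cells for each combination. The share called lower rises from 11.6% to 39.6% and the share called higher falls from 36.3% to 12.1% towards long transcripts.

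Lists differed in length as well. Matrix genes had a median transcript of 6133 bases, and 20 of 39 lay in the longest bin, of which 16 were lower and 2 higher. In the middle bin, where 23.8% of all genes were higher and 21.3% lower, all 7 matrix genes were lower. The median transcript of proteasome genes was 2586 bases, and 23 of 49 lay in the shortest bin, of which 20 were higher. Of the 9 in the middle bin, all 9 were higher. Steroidogenesis genes were short, with a median of 3104 bases, and of the 8 in the shortest bin 6 were lower and 0 higher. Counts in other lists differed between the shortest and the longest bin. Cytosolic chaperones were higher in 7 of 8 cases in the shortest bin, 3 of 6 in the middle bin and 0 of 4 in the longest. G2/M genes were higher in 8 of 10, 9 of 9 and 0 of 4 cases in these bins. For ribosome biogenesis genes the counts were 10 of 15, 5 of 8 and 1 of 6. The median of the chaperones of the endoplasmic reticulum went from 0.34 in the shortest bin (5 genes) to -0.42 in the longest (4 genes), and that of the cholesterol list from 0.33 (6 genes) to -1.30 (2 genes). The part of transcript length in the list counts was not tested further.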

How the data were processed

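RNA of 18 NCI-H295R libraries, 3 per group in 6 groups, was sequenced as stranded total RNA depleted of rRNA, per the labels' protocols. Tools listed are bcl2fastq 2.20, cutadapt 1.18, STAR 2.7.0f and RSEM 1.3.1 with hg38 as the build, all named in the submitters' processing notes without role or order. The authors deposited RSEM expected counts per gene for 58870 genes, which were rounded to whole numbers here. Neither the annotation release nor the strand setting is stated in the sources used here.

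Counts were tested with edgeR 4.0.16 (R 4.3.3): filterByExpr with a minimum count of 10 and a minimum total of 15, TMM scaling, and a quasi-likelihood fit with 1 mean per group over all 18 libraries. P-values were adjusted by Benjamini-Hochberg over the 15787 genes kept, and an adjusted p under 0.05 was called. Log2 fold changes use a prior count of 0.125. Intervals are 95% and use the fit's degrees of freedom. The script was tested on simulated data.

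The biological coefficient of variation was 10.6%. Replicates of a combination differed by more than sampling noise (chi-square per degree of freedom 8.67 to 32.6). Gene positions and transcript lengths are from GENCODE 29 (99.52% of IDs matched) and promoters from RefSeq GRCh38.p14.

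The comparison and 42 gene lists were chosen with earlier results of these data known. Named by rule were the 15 largest called differences in each direction among protein-coding genes (no overlap between groups, mean CPM of 5 or more), up to 4 called members per list by adjusted p, fixed drug targets and adrenal genes, and the 4 largest interactions in each direction. Other list members were named after their values were seen. Alternatives were RLE size factors, other filters, DESeq2 1.42.0, the compared groups alone, a replicate block, leaving out the 50 most counted genes and leaving out each library.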

Additional observations from a re-analysis of the deposited data

Results flagged for a closer look

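The difference between PIK75 and BGT226 changed with STA9090 in 580 genes upward and 959 downward, by the interaction term of edgeR's quasi-likelihood test at an adjusted p under 0.05. The 8 genes with the largest interactions by the naming rule were picked out on the same test. Interactions below 0 were -2.0 for FAM166B, -1.95 for CUX2, -1.79 for PIEZO1 and -1.68 for ADAMTS7. ADAMTS7, a matrix protease, differed by -1.48 between the combinations and by 0.20 between the single agents. Interactions above 0 were 1.17 for C8orf33, 1.19 for EGR1, 1.21 for FOSB and 1.23 for SLC35F2. SLC35F2, a membrane transporter, differed by 1.02 between the combinations and by -0.20 between the single agents, and C8orf33 by 0.75 and -0.42.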

How the results depend on the processing

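The comparison of the combinations kept its counts within 1.5 times under every alternative run, from 2893 to 3561 genes higher and 2951 to 3532 lower, and from 378 to 596 at least 2-fold higher and 697 to 883 at least 2-fold lower. Leaving out 1 library gave 2893 to 3107 higher, 2951 to 3255 lower, 383 to 493 at least 2-fold higher and 707 to 811 at least 2-fold lower. RLE size factors gave 3466 higher and 3376 lower. Interaction counts were less stable. Leaving out 1 library gave 357 to 566 above 0 and 617 to 874 below 0. They were 374 above 0 without BGT226 replicate 2, 379 above and 617 below without BGT226 replicate 3, and 357 above without STA9090+PIK75 replicate 1. The cause was not tested.

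Equal replicate numbers did not pair the libraries, with correlations of -0.06, -0.07 and 0.02 between deviations. A replicate block gave 3275 genes higher and 3466 lower, and interaction counts of 534 and 904. Among single-gene values under the alternatives, 2534 kept their direction and side of the threshold, 7 passed it and 14 no longer passed it. Each group has 3 libraries of 1 cell line, so genes with few counts, such as INHA and ADCY7, rest on little depth.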
